A study of Mus musculus with 6 samples.

Results

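The genes described here are 10 transcripts that mark the cells of the blood vessel wall, followed in bulk RNA sequencing of the cerebellum in WT mice and in KIKO mice, the disease model of the study. Of these, 5 mark endothelial cells (*Cldn5*, *Ly6c1*, *Flt1*, *Pecam1* and *Slco1c1*) and 5 mark mural cells, the pericytes and smooth muscle cells around the endothelium (*Pdgfrb*, *Acta2*, *Rgs5*, *Vtn* and *Tagln*). They were chosen by name, as known markers of these cells, and with earlier results of these data known. They were found among the 31053 genes of the count table by matching the Ensembl identifier to the gene symbol. All 10 had counts in each of the 5 libraries, and 9 passed the filter on low counts and were tested. None of the 9 passed the thresholds for a difference between KIKO and WT mice, and for 8 of them the values of the 2 genotypes overlapped.

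The 5 libraries came from 2 WT and 3 KIKO samples, numbered by the labels. KIKO stands for knock-in knock-out, a germline genotype that all cells of the body carry, vascular cells included, and the WT mice of the study were littermates on the C57BL/6 background. The labels give cerebellum as the tissue of all samples and the genotype as the only difference between the groups, with no treatment, age, sex or cell sorting. The methods of the study describe cells sorted for CD45 and CD11b from the cerebellum, microglia cultured from the cerebellum of mouse pups, and cerebellum of male mice fed butyrate as well as their controls, and the labels do not say which of these the libraries are. A WT sample numbered 3 was not analysed here, and nothing in the labels says more about how the samples of a genotype differ, so that p-values measure the spread between these samples.

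Brain endothelial cells are sealed by tight junctions, take up nutrients through transporters and form the blood-brain barrier. They are wrapped by pericytes, which are recruited by endothelial platelet-derived growth factor B through its receptor on the mural cell, and on arterioles by smooth muscle cells, which contract. Vessels grow and are kept under vascular endothelial growth factor (VEGF), which endothelial cells sense through a pair of receptor tyrosine kinases, the signalling receptor encoded by *Kdr* and the decoy receptor encoded by *Flt1*.

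The WT libraries held 1044760 (replicate 1) and 1351339 (replicate 2) counts and the KIKO libraries 1281661, 1241997 and 1013107 (replicates 1 to 3). Values below are given in this order. Levels are given as normalized CPM, the reads of a gene relative to the TMM-scaled total of its library, and 3 counts, the smallest signal considered, correspond to between 2.28 and 3.04 CPM. This floor covers counting error only. KIKO replicate 2 stood apart from the other libraries. Across all genes tested, which are not independent replicates, Pearson's r of its log2 CPM with any other library was at most 0.747 and at least 0.672, whereas r was between 0.884 and 0.931 among the other 4. The biological coefficient of variation over all genes was 0.468, and 0.238 without this library. The fold changes of the genes tested among the 10 are therefore given with and without it. So are the medians of the vascular gene lists and the fold changes of several of their genes. For the lists of other cell types, sums in each library are given and no medians.

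The labelled tissue was recognizable from its markers. The 7 granule neuron markers and the 5 Purkinje neuron markers were detected in the libraries, with a summed level of at least 1904 and at least 301 CPM. The microglia markers summed to between 4559 and 11849.9 CPM and the choroid plexus markers to between 7958 and 15618 CPM. The 5 endothelial genes summed to between 415 and 787 CPM and the 5 mural genes to between 186 and 339 CPM. In bulk RNA, fewer cells of a type and less RNA per cell cannot be told apart.

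*Ly6c1* has a near-identical copy in the mouse genome. It encodes a surface protein of endothelial cells, while the copy *Ly6c2* is known from inflammatory monocytes. Both lie on the minus strand of chromosome 15 of GRCm38, *Ly6c1* at 75044018 to 75048830 and *Ly6c2* at 75108158 to 75111970. Their coding sequences are 393 bases long and differ at 9 positions, an identity of 97.7%, and 6 of the 9 differences lie in the first 90 coding bases, taken from GENCODE M21 and shown with the differing bases in capitals, since these are the bases by which a read can be assigned to either gene.
Ly6c1: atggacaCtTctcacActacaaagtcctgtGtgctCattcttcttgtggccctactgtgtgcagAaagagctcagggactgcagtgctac
Ly6c2: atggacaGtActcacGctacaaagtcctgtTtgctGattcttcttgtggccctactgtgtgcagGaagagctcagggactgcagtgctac
Of the 319 stretches of 75 bases, the read length in the methods of the study, in the coding sequence of *Ly6c1*, 114 also occur in that of *Ly6c2*. Over whole transcripts this holds for 164 of 1764 stretches (9.3%). *Ly6c2* had 0 counts in all 5 libraries, which allows up to 3 counts in each, whereas *Ly6c1* had between 88 and 288. How reads that fit both genes were counted is not given in the sources used here. *Acta2*, a member of a family of close copies, shares no stretch of this length with *Actg2*, *Acta1* or *Actc1*. *Actg2* had 0 counts, and *Acta1*, the skeletal muscle actin, had between 1 and 17 counts.

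**Figure D1:**
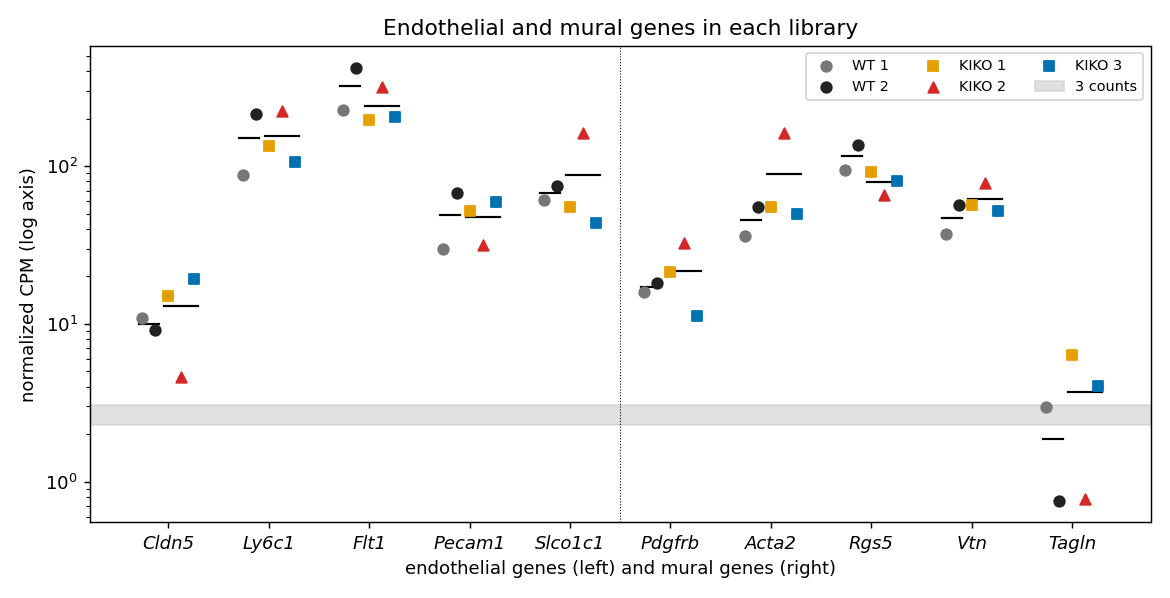
Normalized CPM (log axis) of the 5 endothelial and 5 mural genes in the 2 WT and 3 KIKO libraries. Points are libraries, black lines the mean of each genotype, and the grey band 3 counts. *Tagln* lies at this band and the other 9 above it. The genotypes overlap in every gene except *Rgs5*, and KIKO replicate 2 (red triangle) is highest in 5 of the 9 genes above the band and lowest in 2.

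By normalized CPM, a level per gene that is not corrected for length, *Flt1* was the most abundant of the 10 genes with a mean of 273 CPM, followed by *Ly6c1* (153), *Rgs5* (93.9), *Slco1c1* (79.5), *Acta2* (71.7), *Vtn* (56.1), *Pecam1* (48.0), *Pdgfrb* (19.8), *Cldn5* (11.8) and *Tagln* (2.98). Divided by the exonic length in kilobases, the order of the levels changed. *Ly6c1* was then first with 91.1 CPM per kilobase, followed by *Acta2* (32.6), *Vtn* (27.6), *Rgs5* (20.6), *Flt1* (20.2), *Slco1c1* (15.3), *Cldn5* (8.33), *Pecam1* (7.71), *Pdgfrb* (3.62) and *Tagln* (1.498). The ranges over the 5 libraries overlapped between every pair of neighbours in this second order. Such ranges do not compare genes within a library. *Ly6c1* was above *Acta2* in each library, since its CPM was higher and its exonic length shorter. For the other neighbours, the order within single libraries was not compared. The methods of the study name a digital mRNA sequencing service and the labels a stranded kit. In a method that reads transcript ends, the level would not scale with length and the first order would apply.

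Among the endothelial genes, *Cldn5* (ENSMUSG00000041378, chromosome 16, 18776847 to 18778262, a single exon) encodes claudin 5, the main tight junction strand protein of the blood-brain barrier. It had 10.96 and 9.10 CPM in the WT libraries and 14.98, 4.64 and 19.3 CPM in the KIKO libraries. The KIKO libraries thus lay on both sides of the WT libraries, and KIKO replicate 2, with 6 counts, was the lowest of all. In edgeR's quasi-likelihood test, the log2 fold change of KIKO over WT was 0.36 (SE 0.81, 95% confidence interval −1.48 to 2.203). Without KIKO replicate 2 it was 0.76 (SE 0.63), from 11 and 12 counts in WT against 19 and 19 in KIKO.

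*Pecam1* (ENSMUSG00000020717, chromosome 11, 106654217 to 106750628) encodes the adhesion molecule CD31 of endothelial junctions. Its level was 29.9 and 67.5 CPM in WT and 52.0, 31.7 and 58.9 CPM in KIKO. The WT libraries held both the lowest and the highest value, so all 3 KIKO libraries fell between them. Its log2 fold change was −0.04 (SE 0.50, 95% confidence interval −1.20 to 1.11), and 0.16 (SE 0.37) without KIKO replicate 2.

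*Flt1* (ENSMUSG00000029648, chromosome 5, 147561604 to 147726011) encodes the VEGF receptor that binds the ligand tightly and signals weakly. It had 226 and 421 CPM in WT and 196, 318 and 206 CPM in KIKO. KIKO replicates 1 and 3 were below both WT libraries, and KIKO replicate 2 lay between them. This gave a log2 fold change of −0.43 (SE 0.43, 95% confidence interval −1.41 to 0.54). Without KIKO replicate 2, it was −0.70 (SE 0.28, adjusted p = 0.514 in edgeR's test), still under the size of 0.75 required.

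*Slco1c1* (ENSMUSG00000030235, chromosome 6, 141524368 to 141570177) encodes the transporter OATP1C1, which carries thyroxine into the brain. It had 60.8 and 75.1 CPM in WT and 55.2, 163 and 43.6 CPM in KIKO. KIKO replicate 2 held the highest value, 2.78 times the mean of the other libraries, and the other KIKO libraries the lowest ones. With this library, the log2 fold change was 0.36 (SE 0.59, 95% confidence interval −0.99 to 1.71), and without it −0.46 (SE 0.34), so its sign was set by KIKO replicate 2.

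*Ly6c1* (ENSMUSG00000079018) had 87.7 and 214 CPM in WT and 134, 223 and 106 CPM in KIKO. The lowest value was that of WT replicate 1, and WT replicate 2 was close to the highest, so the genotypes overlapped over most of the range. The fitted log2 fold change was 0.03 (SE 0.50, 95% confidence interval −1.12 to 1.18), and −0.35 (SE 0.32) without KIKO replicate 2.

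Among the mural genes, *Pdgfrb* (ENSMUSG00000024620) encodes the receptor through which pericytes respond to endothelial platelet-derived growth factor B. It had 15.9 and 18.2 CPM in WT and 21.3, 32.5 and 11.2 CPM in KIKO. The WT libraries were close to each other and the KIKO libraries spread to both sides of them. Its log2 fold change was 0.35 (SE 0.62, 95% confidence interval −1.07 to 1.76), and −0.06 (SE 0.57) without KIKO replicate 2.

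*Rgs5* (ENSMUSG00000026678, chromosome 1, 169655501 to 169695813) encodes a regulator of G protein signalling that is abundant in pericytes. It had 94.6 and 137 CPM in WT and 92.3, 65.7 and 80.2 CPM in KIKO. This was the single gene of the 9 whose genotypes did not overlap, with all KIKO libraries below both WT libraries, though KIKO replicate 1 was close to WT replicate 1. The WT mean was 116 ± 29.6 CPM (SD, n = 2) and the KIKO mean 79.4 ± 13.3 CPM (SD, n = 3). Among all genes tested, 8.51% had KIKO libraries that all lay below the WT libraries. For *Rgs5*, the log2 fold change was −0.54 (SE 0.37, 95% confidence interval −1.39 to 0.31), and −0.43 (SE 0.30) without KIKO replicate 2, short of the thresholds in both.

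*Vtn* (ENSMUSG00000017344, chromosome 11, 78499091 to 78502324) encodes vitronectin, a matrix glycoprotein that pericytes of the brain make. It had 36.9 and 56.9 CPM in WT and 56.8, 78.0 and 51.8 CPM in KIKO. WT replicate 2 lay above KIKO replicates 1 and 3, and WT replicate 1 was the lowest. Its log2 fold change was 0.40 (SE 0.42, 95% confidence interval −0.56 to 1.37), and 0.20 (SE 0.36) without KIKO replicate 2.

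*Acta2* (ENSMUSG00000035783, chromosome 19, 34241090 to 34255590) encodes the actin of vascular smooth muscle. It had 35.9 and 55.4 CPM in WT and 55.2, 162 and 49.7 CPM in KIKO. A single library, KIKO replicate 2, stood above the others, at 3.31 times their mean, and the remaining KIKO libraries lay between the WT libraries. With all 5 libraries, its log2 fold change of 0.96 (SE 0.60, 95% confidence interval −0.40 to 2.33) was the largest in size among the 9 genes, and it was 0.19 (SE 0.36) without that library.

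*Tagln* (ENSMUSG00000032085, chromosome 9, 45929619 to 45936058) encodes transgelin, an actin-binding protein of contractile smooth muscle. It had 3 and 1 counts in WT and 8, 1 and 4 counts in KIKO, at or near the floor, and did not pass the filter. No fold is given for it. Its exons overlap those of *Gm48529* and *Pcsk7* on the opposite strand, and reads of these genes cannot be told apart from its own if strand was not used in the counting. The exons of the other 9 genes overlap no other gene of the annotation.

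The study names a log2 fold change beyond 0.75 in either direction and p under 0.05 as its thresholds, without saying whether that p was adjusted, and they were applied here to the p before adjustment. On these terms, edgeR's test called 0 of the 9 genes, beside 131 of all 10889 genes tested (1.2%), 78 higher (0.716%) and 53 lower (0.487%) in KIKO. None of the 9 had a p under 0.05 without adjustment, neither in edgeR's test, where all genes that did (1.2%) also passed the size required, nor in DESeq2's Wald test, by which 1.03% of 16822 genes passed both thresholds. After Benjamini-Hochberg adjustment over all genes tested, the p of each was 1 in edgeR's test, and 0 of the 10889 genes passed. By the fitted values, 6 of the 9 were higher and 3 lower in KIKO, with a median log2 fold change of 0.35, beside 5648 higher and 5241 lower and a median of 0.02 over all genes. Without KIKO replicate 2, the median of the 9 was −0.06 and that of all genes −0.01. In that fit, 0 of the 9 passed both thresholds, beside 6.45% of 10373 genes, and *Flt1* was the single one of the 9 with a p under 0.05 before adjustment, beside 8.21% of all genes. At an adjusted p under 0.05, it was 0 of the 9 beside 5 of all genes (0.0482%). With all libraries, the 95% confidence intervals of all 9 genes included 0 and also reached beyond 0.75 in at least 1 direction, so a difference of the size required lay within each interval, as did no difference.

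**Figure D2:**
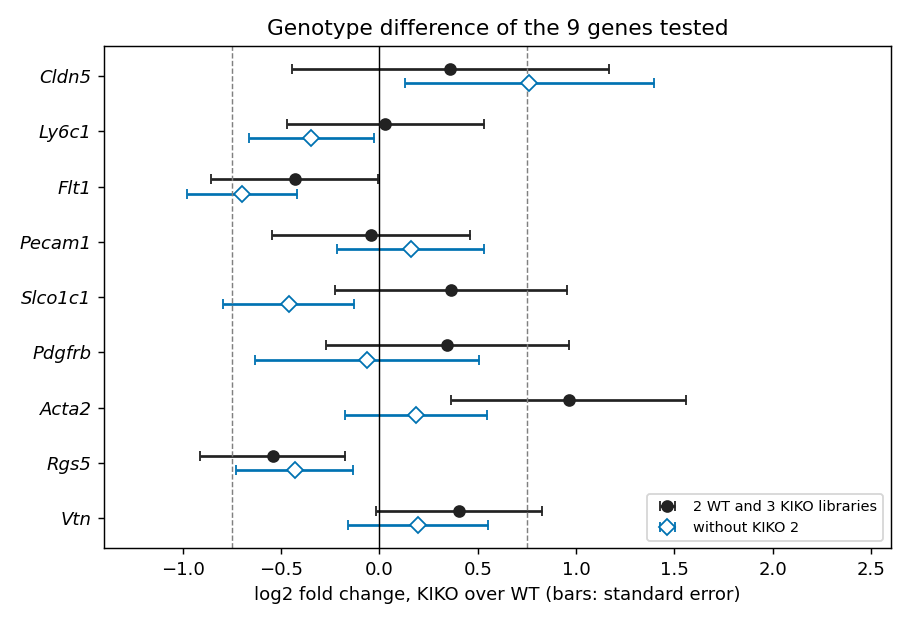
Log2 fold change of KIKO over WT with its standard error for the 9 genes tested by edgeR, with all 5 libraries (filled circles) and without KIKO replicate 2 (open diamonds). Dashed lines mark 0.75 in either direction. *Acta2* moves from 0.96 to 0.19 and *Slco1c1* from 0.36 to −0.46 when KIKO replicate 2 is left out, whereas *Rgs5* stays near −0.5.

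The 10 genes did not move as one block across the libraries. KIKO replicate 2 was the highest library in 5 of the 9 genes and the lowest in 2. Relative to the mean of the other 4 libraries, it had 3.31 times as much *Acta2*, 2.78 times as much *Slco1c1*, 1.95 times as much *Pdgfrb*, 1.65 times as much *Ly6c1* and 1.54 times as much *Vtn*. In the same library, *Rgs5* was at 0.651, *Pecam1* at 0.608 and *Cldn5* at 0.341 times that mean. The endothelial transporter gene *Slco1c1* thus lay above and the junction genes *Cldn5* and *Pecam1* below the other libraries' mean, and of the pericyte genes *Pdgfrb* and *Vtn* lay above and *Rgs5* below it. Over all genes tested, KIKO replicate 2 was the highest library for 33.9% and the lowest for 37.1%.

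**Figure D3:**
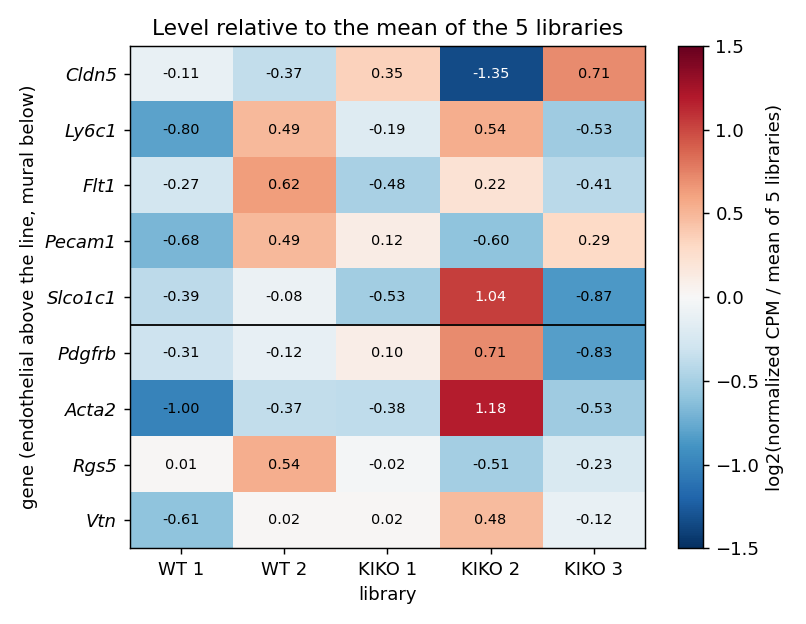
Level of the 9 genes tested in each library, as log2 of the normalized CPM over the mean of the 5 libraries (red above, blue below). The column of KIKO replicate 2 holds the extremes in both directions, from −1.35 for *Cldn5* to 1.18 for *Acta2*, and WT replicate 2 exceeds WT replicate 1 in every gene except *Cldn5*.

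The WT libraries differed from each other in one direction. In 8 of the 9 genes, WT replicate 2 was above WT replicate 1, with a median log2 ratio of 0.61, whereas over all genes tested this held for 50.3% and the median ratio was 0.01. *Ly6c1* was 2.44 times, *Pecam1* 2.26 times and *Flt1* 1.86 times as high in WT replicate 2, and only *Cldn5* was lower, at 0.831 times. On the scale of log2(CPM + 1), the difference between the WT libraries was larger than that between the genotype means of the log2 values in 6 of the 9 genes, beside 59.8% of all genes. With the log2 ratio of the mean CPM in place of the mean log2 values, it was larger in 4 of the 9, beside 61.8% of all genes.

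Summed over the 5 endothelial genes, the level was 415 and 787 CPM in WT and 452, 740 and 433 CPM in KIKO. WT replicate 2 and KIKO replicate 2 formed the high end, and the other 3 libraries lay close together. The log2 ratio of the means was −0.15, less than the spread between replicates of a genotype (0.51 on the log2 scale). The 5 mural genes summed to 186 and 268 CPM in WT and 232, 339 and 197 CPM in KIKO, a log2 ratio of 0.17 against a spread of 0.39. The endothelial sum was 2.23 and 2.94 times the mural sum in WT and 1.95, 2.18 and 2.201 times in KIKO. This ratio stayed within a narrower range than either sum, and the genotypes did not overlap in it, with KIKO replicate 3 just below WT replicate 1. Since it was looked at after the sums were seen, it is given as values. Of all genes tested, 16.7% had genotypes that did not overlap, in either direction, and no such share was computed for ratios of sums. Set against the separate sum of the microglia markers, the endothelial sum came to 8.04% and 11.9% of it in WT and 9.91%, 6.25% and 8.16% in KIKO, where the lowest value is that of KIKO replicate 2, the library with the highest microglia sum.

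Around these 10 genes, 12 lists of vascular genes were compared, with 174 genes besides the 10, of which 128 were tested. Of the 128, 1 passed the thresholds (0.781%), beside 1.2% of all genes. It was *Kdr*, the main signalling receptor for VEGF on endothelial cells, with 70.7 and 49.3 CPM in WT and 27.6, 6.95 and 30.4 CPM in KIKO. All KIKO libraries were below both WT libraries. The log2 fold change of *Kdr* was −1.47 (SE 0.62, adjusted p = 1 in edgeR's test), and −1.05 (adjusted p = 0.45) without KIKO replicate 2. Its paired receptor *Flt1* was not called, and the difference between both receptors was not tested. The ratio of *Flt1* to *Kdr* counts was 3.20 and 8.54 in WT and 7.09, 45.8 and 6.77 in KIKO, so that the genotypes overlapped in it and KIKO replicate 2 stood apart. *Kdr* no longer passed without WT replicate 1 (−1.19), WT replicate 2 (−1.72) or KIKO replicate 1 (−1.69), and it was not tested when at least 10 counts were required in every sample, since KIKO replicate 2 had 9. With the replicate block it was at −2.02 and passed.

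**Figure D4:**
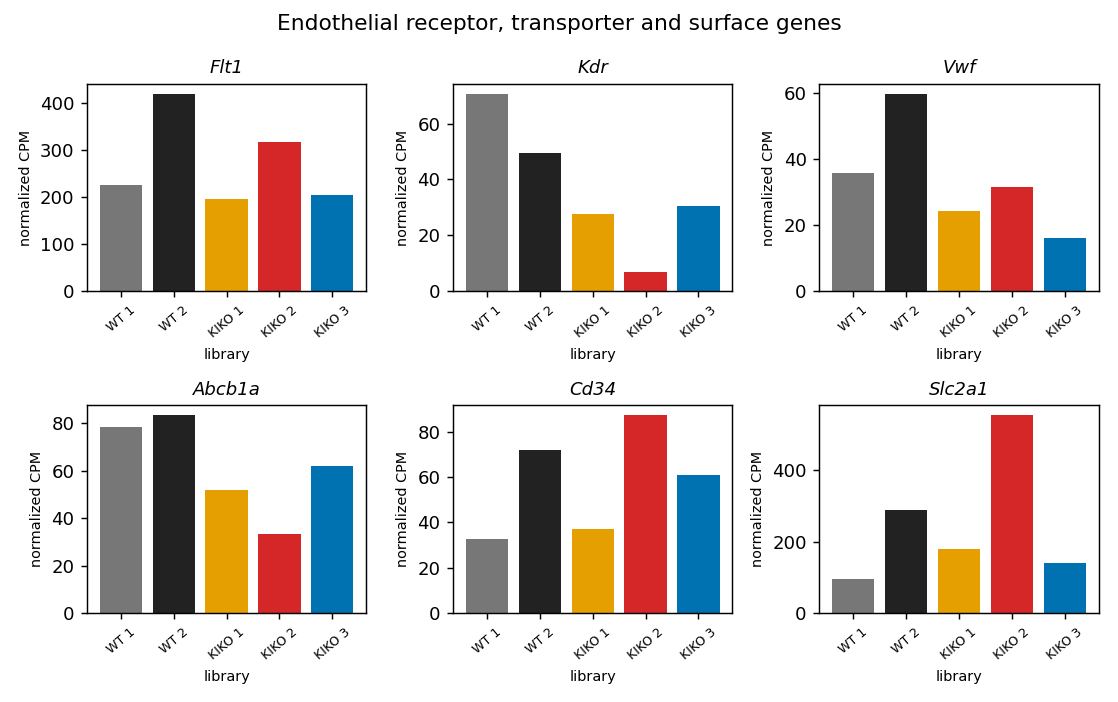
Normalized CPM (bars, one per library) of the VEGF receptor genes *Flt1* and *Kdr*, of *Vwf*, *Abcb1a*, *Cd34* and *Slc2a1*. In *Kdr*, *Vwf* and *Abcb1a*, of which the latter 2 were chosen after their values were seen, the 3 KIKO libraries are below both WT libraries, and of these genes *Kdr* passed the thresholds. KIKO replicate 2 is highest for *Cd34* and *Slc2a1* and lowest for *Kdr* and *Abcb1a*.

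Of the 22 pan-endothelial genes, 19 were tested, 9 higher and 10 lower in KIKO by the fitted values, with a median log2 fold change of −0.01, and −0.20 without KIKO replicate 2. The most abundant was *Cd34*, a sialomucin of the endothelial surface, with a log2 fold change of 0.23 with and −0.13 without that library, followed by *S1pr1*, the receptor for sphingosine 1-phosphate, and the junction gene *Esam* (−0.07 and 0.03). *S1pr1* had 22.9 and 50.8 CPM in WT and 28.4, 163 and 8.12 CPM in KIKO. KIKO replicate 2 was 5.92 times the mean of the others, and the log2 fold change was 0.85 with it and −0.99 without it. In 4 of the 19, *Kdr*, *Vwf*, *Tie1* and *Icam2*, the KIKO libraries were all below the WT libraries, and in 0 all above, beside 8.51% and 8.2% of all genes. These genes are named after their values were seen. *Vwf*, which encodes the von Willebrand factor stored in endothelial cells, had 35.9 and 59.9 CPM in WT and 24.4, 31.7 and 16.2 CPM in KIKO, a log2 fold change of −0.98 (SE 0.49), which was not called.

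Of the 26 genes for transporters and junctions of the blood-brain barrier, 24 were tested and 0 passed, with 17 higher and 7 lower by the fitted values and a median of 0.16. Without KIKO replicate 2, 21 were tested, 7 higher and 14 lower, with a median of −0.15. The most abundant were *Slc3a2*, the heavy chain of amino acid exchangers (log2 fold change 0.05, and −0.16 without that library), *Slc2a1*, the glucose transporter GLUT1 (0.59 and −0.29), and *Bsg*, basigin, which escorts lactate transporters to the membrane (−0.75 and −0.34). *Slc2a1* had 96.6 and 289 CPM in WT and 180, 553 and 139 CPM in KIKO, again with KIKO replicate 2 and WT replicate 2 at the top. *Abcb1a*, the drug efflux pump of the barrier, had 78.7 and 83.4 CPM in WT and 52.0, 33.2 and 61.9 CPM in KIKO, with a log2 fold change of −0.73 (SE 0.41) that was not called. Of the 24 genes, the genotypes did not overlap in 5, with KIKO lower in *Abcb1a*, *Bsg* and *Slc7a1* and higher in the lactate transporter gene *Slc16a1* (0.86, SE 0.62) and the junction gene *Ocln* (1.06, SE 0.83), beside the same 8.51% and 8.2% of all genes. Of these, all except *Bsg* are named after their values were seen.

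Of the VEGF and angiopoietin genes, 10 of 13 were tested and *Kdr* passed, with a median of 0.07, and 0.09 without KIKO replicate 2. The most abundant were *Ptprb*, the endothelial phosphatase that acts on the angiopoietin receptor (log2 fold change −0.18), the ligand gene *Vegfb* (0.56) and the co-receptor gene *Nrp1* (0.41). Of the PDGF and TGF-beta genes, 13 of 15 were tested and 0 passed, with a median of 0.27, and −0.15 without KIKO replicate 2. *Pdgfb*, the endothelial ligand of the receptor encoded by *Pdgfrb*, had 131 and 111 CPM in WT and 71.8, 332 and 73.1 CPM in KIKO. KIKO replicate 2 was at the top and the other KIKO libraries were below both WT libraries, and the log2 fold change was 0.39 (SE 0.68) with it and −0.74 (adjusted p = 0.51 in edgeR's test) without it. The log2 fold change of *Pdgfa* was −0.44 with and −0.15 without that library, and that of the receptor gene *Tgfbr1* 0.27 and −0.23.

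Of the genes of Wnt signalling in the barrier, 6 of 14 were tested and 0 passed, with a median of 0.05, and −0.27 without KIKO replicate 2. The most abundant was *Ctnnb1*, encoding beta-catenin, at 0.04 with and −0.52 without that library, followed by the co-receptor gene *Lrp6* (0.06 and −0.07) and the transcription factor gene *Foxq1* (−0.54 and −0.93). Of the Notch genes, 10 of 13 were tested and 0 passed, with a median of −0.06, and −0.64 without KIKO replicate 2. *Rbpj*, which encodes the nuclear partner of the Notch receptors, had a log2 fold change of −0.47 with and −0.59 without that library, and the target gene *Hes1* −0.75 and −0.69. The sign of the receptor gene *Notch2* turned, from 0.34 to −1.401. Of the arterial and venous genes, 7 of 12 were tested and 0 passed, with a median of 0.10, and −0.31 without KIKO replicate 2. Of the genes that are highest in veins and venules, *Vcam1* was at 0.42 with and −0.31 without that library, *Ackr1* at 0.32 and −0.25, and *Nr2f2* at 0.25 and 0.55. In 2 of the 7, the arterial genes *Efnb2* and *Gja4*, named after their values were seen, all KIKO libraries were below both WT libraries, beside 8.51% of all genes, with log2 fold changes of −1.70 (SE 0.89) and −0.85 (SE 0.71), neither of which was called. *Apcdd1* and *Gja5* had 0 counts in all libraries.

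Of the further pericyte genes, 7 of 15 were tested and 0 passed, with a median of 0.00, and −0.16 without KIKO replicate 2. *Cald1*, a regulator of actomyosin shared with smooth muscle, was the most abundant (log2 fold change −0.09), followed by the transcription factor gene *Ebf1* (0.43) and the proteoglycan gene *Cspg4* (−0.66). Of the smooth muscle contractile genes, 12 of 19 were tested and 0 passed, with a median of −0.03, and −0.21 without KIKO replicate 2, and the tropomyosin gene *Tpm1* and the myosin kinase gene *Mylk* were at 0.08 and −0.05. The high *Acta2* of KIKO replicate 2 was thus not shared by this list as a whole, whose sum in that library was 1.19 times the mean of the others. Its tested genes went both ways in that library, from 0.535 times the mean of the others for *Mrtfb* to 2.89 times for *Tpm2*. Both are named after their values were seen.

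Of the perivascular fibroblast genes, 7 of 12 were tested and 0 passed, with 4 higher and 3 lower by the fitted values and a median of 0.01, and 0.18 without KIKO replicate 2. The sum over the list was 830 and 1031 CPM in WT and 1115, 1580 and 1325 CPM in KIKO, without overlap. Of the 7 genes, the KIKO libraries were all above the WT libraries in 3 (42.9%), *Ptgds*, *Col1a1* and *Col1a2*, of which the collagen genes are named after their values were seen, beside 8.2% of all genes. Most of it came from *Ptgds*, a prostaglandin D synthase made by meningeal fibroblasts and also by oligodendrocytes, with 538 and 758 CPM in WT and 847, 1243 and 1029.99 CPM in KIKO (log2 fold change 0.68, SE 0.41). *Mgp* and *Igfbp2* were at 0.01 and −0.50, and at −0.01 and −0.58 without KIKO replicate 2. Of the basement membrane genes, 13 of 14 were tested and 0 passed, with a median of 0.13, and −0.07 without KIKO replicate 2. *Sparc* was at 0.10 with and −0.07 without that library, *Sparcl1* at −0.30 and 0.03, and the fibronectin gene *Fn1* at 0.82 and 0.20. Of the endothelial activation genes, 9 of 10 were tested and 0 passed, with a median of 0.18, and −0.25 without KIKO replicate 2. *Icam1*, the leukocyte adhesion molecule, was at 0.44 with and −0.01 without that library, and *F11r*, a junction gene, at −0.40 and −0.78.

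Over the 128 vascular genes, the KIKO libraries were all above the WT libraries in 7 (5.47%) and all below in 14 (10.9%), beside 8.2% and 8.51% of all genes. Without KIKO replicate 2, 7 of 116 vascular genes passed the thresholds, all lower in KIKO (6.03%), beside 3.51% of all genes in this direction and 2.94% in the other. They were *Notch2*, *Vwf*, *Kdr*, *Tgfbr2*, *F11r*, *Mrtfa* and *Tpm2*, with adjusted p between 0.403 and 0.534 in edgeR's test. In 5 of them, KIKO replicate 2 lay on the other side of or among the WT libraries. It had 140 CPM of *Notch2* beside 28.9 and 63.0 CPM in WT, 168 CPM of *Tgfbr2* beside 41.8 and 75.1 CPM, 66.5 CPM of *Tpm2* beside 29.9 and 34.1 CPM, 160 CPM of *F11r* beside 129 and 163 CPM, and 21.6 CPM of *Mrtfa* beside 19.9 and 50.1 CPM.

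**Figure D5:**
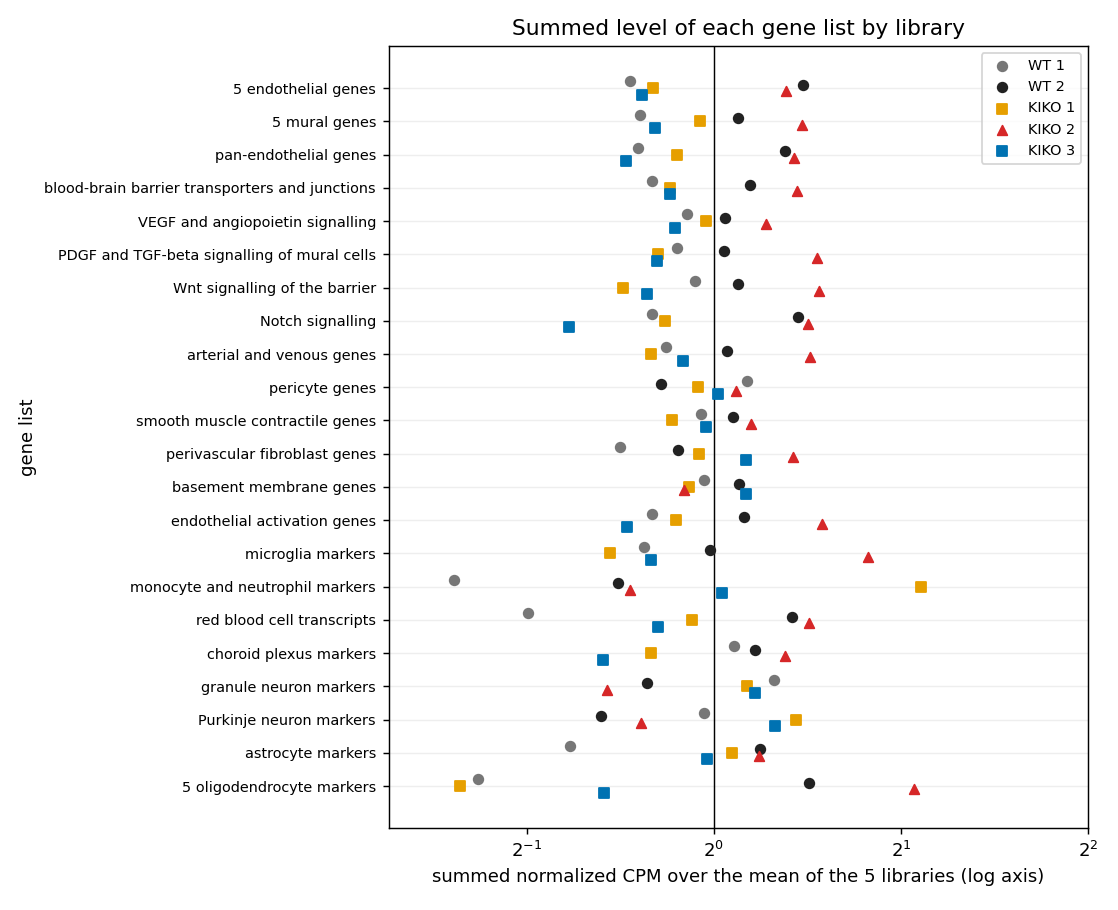
Summed normalized CPM of the 5 endothelial and 5 mural genes, the 12 vascular lists and the 8 lists for other cell types in each library, over the mean of the 5 libraries (log axis). KIKO replicate 2 and WT replicate 2 lie to the right for the endothelial genes and also for the oligodendrocyte, red blood cell, choroid plexus and astrocyte lists. They are the highest libraries of the microglia list as well, and lie to the left for the granule and Purkinje neuron lists.

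The libraries with the high endothelial sums also had the highest sums of several lists of other cells, though not of every gene in them. The 10 microglia markers, of which all were tested and *Csf1r* was the most abundant, summed to 5168 and 6601 CPM in WT and 4559, 11849.9 and 5311 CPM in KIKO. The 5 red blood cell transcripts, with *Hbb-bs* at the top, summed to 1031 and 2749 CPM in WT and 1896, 2920.2 and 1673 CPM in KIKO. In KIKO replicate 2 this sum was carried by *Hbb-bs*, with 2197 CPM beside 1058 and 870 CPM in the other KIKO libraries. By contrast, *Hba-a1* (330 CPM beside 351 and 347 CPM) and *Hba-a2* (156 CPM beside 314 and 265 CPM) were lowest in KIKO replicate 2 among the KIKO libraries. So was *Alas2* (5.41 CPM beside 11.04 and 19.3 CPM), which is named after its values were seen. For 5 oligodendrocyte markers, the sum was 1897 and 6469.7 CPM in WT and 1777, 9562 and 3030.1 CPM in KIKO, 2.90 times the mean of the others in KIKO replicate 2, where *Mag*, 1 of these markers, was at its lowest of the 5 libraries. WT replicate 2 and KIKO replicate 2 were the highest libraries in the sums of these 3 lists, as they were for the endothelial sum. The same held for the sums of the choroid plexus and astrocyte markers, given below. No marker of the 3 lists was at 0 in all libraries.

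The sums of the neuronal markers went the other way. The 7 granule neuron markers, with *Rbfox3* at the top, summed to 3531 and 2212 CPM in WT and 3201, 1904 and 3296 CPM in KIKO, and the 5 Purkinje markers, with *Itpr1* at the top, to 441 and 301 CPM in WT and 621, 350.0 and 574 CPM in KIKO. In both sums, WT replicate 2 and KIKO replicate 2 were the lowest libraries of their genotype. Single markers departed from this, of which *Cbln1*, *Pcp2* and *Fat2* are named after their values were seen. *Cbln1* was highest among the KIKO libraries in replicate 2 (317 CPM beside 255 and 230 CPM), *Pcp2* (40.2 CPM beside 34.9 CPM) and *Fat2* (25.03 CPM beside 23.9 CPM) were higher in WT replicate 2 than in WT replicate 1, and *Fat2*, *Pcp2* and *Pcp4* in KIKO replicate 2 were above KIKO replicate 3. The sums of the choroid plexus and astrocyte markers, like the endothelial sum, were highest in WT replicate 2 and KIKO replicate 2. The 8 choroid plexus markers, with *Ttr* at the top, summed to 12943 and 14022 CPM in WT and 9526, 15618 and 7958 CPM in KIKO. Of the 7 astrocyte markers, 5 were tested and *Gfap* passed the thresholds with a log2 fold change of 1.33 (adjusted p = 1 in edgeR's test), a call lost with DESeq2, with the replicate block and without WT replicate 2 (0.88), KIKO replicate 1 (1.46) or KIKO replicate 3 (1.33), while the sum was 248 and 501 CPM in WT and 453, 499 and 412 CPM in KIKO, with *Slc1a3* at the top. Of the 8 monocyte and neutrophil markers, 2 were tested, 3 (*Ly6c2*, *Ly6g* and *Plac8*) were at 0 in all libraries and *S100a9* was the most abundant, and the sum was 16.9 and 31.1 CPM in WT and 95.4, 32.5 and 45.7 CPM in KIKO. The part of the mixture of cells in the vascular values was not tested.

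Genes whose profile over the 5 libraries was most like that of the endothelial sum were *Rgs2*, *Ptprb*, *Ctla2a*, *Lamp1* and *Ak3*. Likeness was measured as the root mean square difference of centred log2(CPM + 1), among 7515 genes with a mean of at least 20 CPM, and was 0.0456 for *Rgs2* and 0.0598 for *Ptprb*, beside a median of 0.581 over the genes compared. *Rgs2* had 373 and 645 CPM in WT and 393, 659 and 376 CPM in KIKO. *Ptprb* had 52.8 and 108 CPM in WT and 62.3, 92.7 and 58.9 CPM in KIKO. Both followed the sum in being high in WT replicate 2 and KIKO replicate 2. For the mural sum the closest were *Dvl2* (0.0222), *Nfe2l2* (0.0431), *Traf7* (0.0597), *Mars* (0.0647) and *Agps* (0.0692), beside a median of 0.516.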

How the data were processed

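Bulk RNA sequencing of 2 WT and 3 KIKO cerebellum samples was analysed from the deposited tables. Reads had been trimmed (Trimmomatic), mapped to mm10 (HISAT2) and assigned to genes (featureCounts) by the authors, who deposited raw counts, and log2 values that were log2 of the count over a DESeq2 size factor plus 1. This was checked by recovering every count to within 0.01. The annotation, the strand setting and the handling of reads with several matches are not given in the sources used here. For RNA and libraries, the labels name a Qiagen lipid tissue kit and a stranded Illumina kit, and the methods of the study a Zymo kit and a digital mRNA sequencing service. Columns were matched to samples by name, and 2 columns per table, named for butyrate, matched no sample and were not used. WT replicate 3 was not analysed here, which left 2 samples against 3.

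GENCODE M21 (GRCm38) gave symbols for 30934 identifiers (99.6%), positions and sequences. With edgeR 4.0.16 in R 4.3.3, genes were filtered by filterByExpr (minimum count 10, minimum total 15), scaled by TMM and fitted with glmQLFit and glmQLFTest, two-sided, and p-values were adjusted over all 10889 genes kept (Benjamini-Hochberg). The median library held 1241997 counts. The 10 genes and the gene lists were chosen with earlier results of these data known, and no list was tested as a set. From each list, up to 5 genes past the thresholds, by smallest p, and the 3 with the highest mean CPM are named, with the 5 genes closest in profile to each sum and close copies of the 10 genes, and other genes only where it is said that their values had been seen. As alternatives, DESeq2 1.42.0, RLE factors, unscaled library sizes, all genes with at least 1 count, at least 10 counts in every sample, limma 3.58.1 with trend on the deposited log2 values, the replicate number as a block, and the omission of each library were run. The fits were tested on simulated data. Some results are not reported here.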

Additional observations from a re-analysis of the deposited data

How the results depend on the processing

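Of the 12 alternatives, each that kept both WT libraries had 0 of the 10 genes past the thresholds and 0 with an adjusted p under 0.05. Over all genes, 1.03% of 16822 passed the thresholds with DESeq2 and 6.45% of 10373 without KIKO replicate 2. At an adjusted p under 0.05, it was 0% and 0.0482% of all genes in these 2 settings. Of 107 log2 fold changes of the 9 genes under an alternative, 10 had another sign and 97 kept it. With the replicate block, *Cldn5* was at −0.22, and with limma on the log2 values *Pecam1* was at 0.041. Without KIKO replicate 2, *Ly6c1* was at −0.35, *Pecam1* at 0.16, *Slco1c1* at −0.46 and *Pdgfrb* at −0.063. Without KIKO replicate 3, *Cldn5* was at −0.029, without WT replicate 1 *Ly6c1* at −0.49, and without WT replicate 2 *Flt1* at 0.068 and *Pecam1* at 0.66. Over the fits that each left out 1 library, the values ranged from −0.029 to 0.76 for *Cldn5*, −0.49 to 0.79 for *Ly6c1*, −0.82 to 0.068 for *Flt1*, −0.51 to 0.66 for *Pecam1*, −0.46 to 0.68 for *Slco1c1* and −0.063 to 0.65 for *Pdgfrb*. *Acta2* (0.19 to 1.29), *Rgs5* (−0.79 to −0.27) and *Vtn* (0.12 to 0.74) kept their sign. In these fits, a single library left in a genotype is assumed to vary like the other group.

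The log2 ratio of the endothelial sum ranged from −0.54 to 0.38, the latter without WT replicate 2, and that of the mural sum from −0.08 to 0.46. The count of vascular list genes past the thresholds was 3 of 171 with DESeq2 (*Dll1*, *Kdr* and *Col1a1*), beside 1.03% of all 16822 genes. It was 5 of 171 with all genes of at least 1 count and 0 of 80 with at least 10 counts in every sample. Without KIKO replicate 2 it was 7 of 116, *Kdr* included, beside 6.45% of all 10373 genes in either direction. Leaving out KIKO replicate 1 gave 1 of 121 (*Col1a1*), and KIKO replicate 3 gave 1 of 125 (*Kdr*). For the settings without a percentage, the share over all genes is not given here. The replicate block, which leaves 1 residual degree of freedom, gave 3 of 128 (*Kdr*, *Bsg* and *Lamb1*). Across genes, the departures from the mean of the genotype correlated with r of 0.18 and 0.239 between libraries of the same number. Between WT replicate 1 and KIKO replicate 3, r was 0.218. With 2 WT libraries, the departures of one mirror those of the other. Those of KIKO replicates 1 and 3 both ran against replicate 2, with r of −0.822 and −0.852. These correlations therefore cannot decide whether the numbers pair the samples, and the main test did not pair them. Why the fold changes and counts moved between settings was not tested. Depth limits *Tagln* and *Cldn5* most, with at most 8 and 19 counts in a library.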
